A study of Mus musculus with 8 samples.

Results

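The nuclear-encoded subunits of the respiratory chain and ATP synthase were examined in ribosome-bound RNA of astrocytes and in whole cortex RNA of the same mice. Members were the rows whose gene symbol begins with Ndufa, Ndufb, Ndufc, Ndufs or Ndufv, Uqcr, Cox4 to Cox8 or Atp5, or is one of the 4 Sdh subunit symbols, with the Ndufaf assembly factors left out. This took 85 of 24060 rows, of which 38 carry complex I symbols, 4 belong to complex II, 8 to complex III, 18 to complex IV and 17 to complex V. The cortex came from 4 mice, male and female without a record of which was which, aged 80 postnatal days and of the genotype Aldh1l1-creERT2 hemi; Ribotag het. The labels used here give neither a strain background nor a tamoxifen schedule. The astrocyte gene Aldh1l1 drives the Cre/ERT2 recombinase, a form that acts after tamoxifen, and Ribotag is an allele that, after Cre has acted, adds a hemagglutinin (HA) tag to a ribosomal protein. Each animal, numbered 579, 580, 581 or 595, gave 2 libraries, input from the cleared lysate and HA IP from what the HA antibody precipitated. Both groups therefore share the same animals and genotype, and neither has a control animal without Cre. All levels are FPKM, fragments relative to gene length and library total, and lists of 4 values follow the animal order 579, 580, 581, 595.

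The respiratory chain passes electrons from NADH through complex I, and from succinate through complex II, to coenzyme Q. Complex III hands them to cytochrome c and complex IV to oxygen, and the proton gradient built on the way drives ATP synthase, complex V. Apart from complex II, each complex combines a few subunits made inside the mitochondrion with many made from nuclear genes, some of which exist as isoforms restricted to certain tissues. Astrocytes are known for active glycolysis and lactate release, and they also oxidise glucose, fatty acids and glutamate in mitochondria. The mitochondrially encoded subunits were not analysed here.

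The libraries held 33834388 to 53625125 fragments. The label of the precipitate was checked on 10 astrocyte markers, which were all higher in HA IP at a median log2 fold change of 4.56. The 10 neuron markers were all lower, with a median of -3.60. The lists of 8 oligodendrocyte, 8 microglia and 7 endothelial markers were lower in HA IP throughout. Fold changes depend on the scaling between libraries. Trimmed mean of M-values (TMM) factors, which centre the bulk of genes, put the median of all 15945 genes tested at -0.018 on the log2 scale, while the deposited FPKM put it at -0.79, and for genes well above the pseudocount of 0.1 FPKM the scales differ by 0.84. Values below are on the TMM scale unless the deposited scale is named. In bulk tissue, fewer cells of a type and less RNA per cell cannot be told apart. HA IP also differs from input in holding ribosome-bound RNA. A difference in ribosome binding therefore cannot be told apart from a difference between cell types in any fold change here.

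Most respiratory chain transcripts were higher in the astrocyte precipitate than in whole cortex on the TMM scale. Of the 84 members tested, 73 were higher in HA IP, against 42.1% of all genes, and 5 were lower, against 42.3% of all genes (limma, Benjamini-Hochberg adjusted p under 0.05). The members' median log2 fold change was 1.25, and in single animals it ran from 1.08 to 1.40. At least 2-fold differences were found for 50 members in the higher direction, against 25.3% of all genes, and for 2 in the lower direction, against 28.3%. These 2-fold counts hold for the TMM scale only. On the deposited scale the members' median log2 fold change was 0.41, which is below 2-fold. Cox8c, a testis isoform, had no fragment in any library and was the only member not tested. The members that fell were Cox6a2, Ndufa4l2, Cox7b, Ndufa4 and Atp5e. Of these 5, 3 fell without the animal as a block and without animal 579, 580 or 595, the calls of Ndufa4 and Atp5e being lost each time. Those that did not pass were Ndufb2, Ndufb4, Cox7a2, Cox7a2l, Atp5s and Atp5sl.

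On the deposited scale fewer members stood higher. There 46 were higher, against 23.7% of all genes, 20 were lower, against 62.5%, and 18 did not pass. All 46 were also higher on the TMM scale and all 5 that fell on the TMM scale fell on the deposited scale. A further 9 members changed side, being higher on the TMM scale and lower on the deposited one. They were Ndufa1, Ndufb6, Ndufb9, Ndufc1, Cox6c, Cox7c, Cox8a, Atp5g1 and Atp5k. The deposited FPKM of HA IP and input libraries did not overlap for 56 members, of which 42 were higher in HA IP, against 21.5% of all genes, and 14 were lower, against 58.5%.

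**Figure D1:**
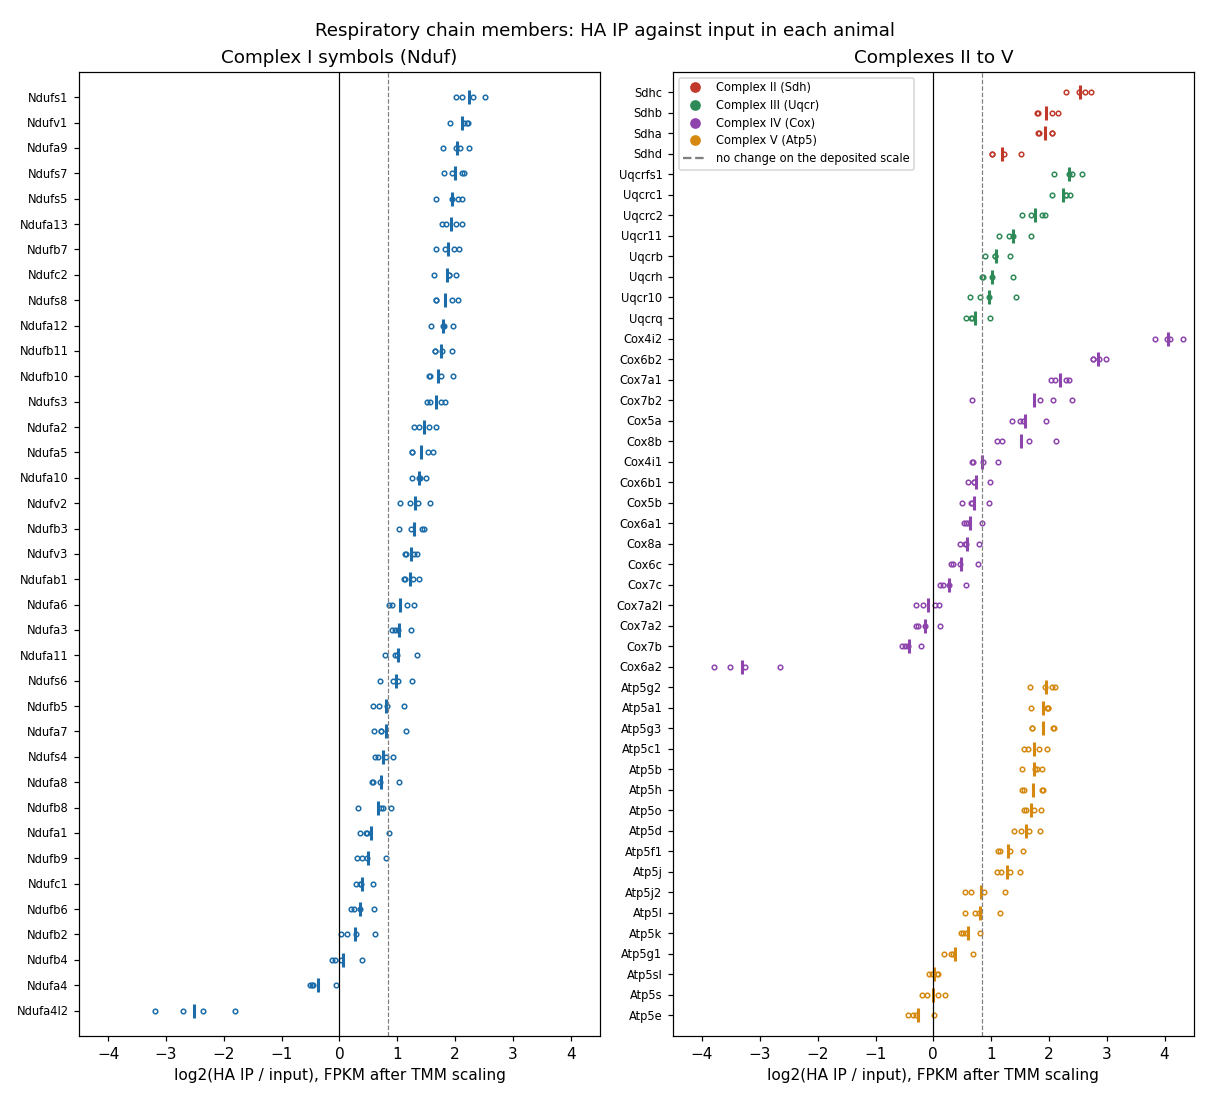
Log2 ratio of HA IP to input after TMM scaling for 83 members tested, with 1 open point per animal and a bar at the fitted log2 fold change, complex I on the left and complexes II to V on the right. The dashed line at 0.84 marks equal deposited FPKM, and 5 members have bars below 0 and a passed test.

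The spread among members was wide beside the spread among animals. Outside the 8 isoforms known to be restricted to certain tissues, log2 fold changes ran from -0.42 for Cox7b to 2.54 for Sdhc, a span of 2.96 or 7.78-fold. The median SD of a member over the 4 animals was 0.19. The order of these 77 members was alike from animal to animal, with Spearman correlations of 0.973 to 0.988 across members, which are not independent replicates. A difference between members does not depend on the scaling, because a scaling factor moves all genes of a library together. The 77 mitochondrial ribosomal protein genes are another large nuclear-encoded set of the organelle. Of these, 67 were higher and 3 lower in HA IP, against 42.1% and 42.3% of all genes. Their median was 1.03, and 0.19 on the deposited scale.

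**Figure D2:**
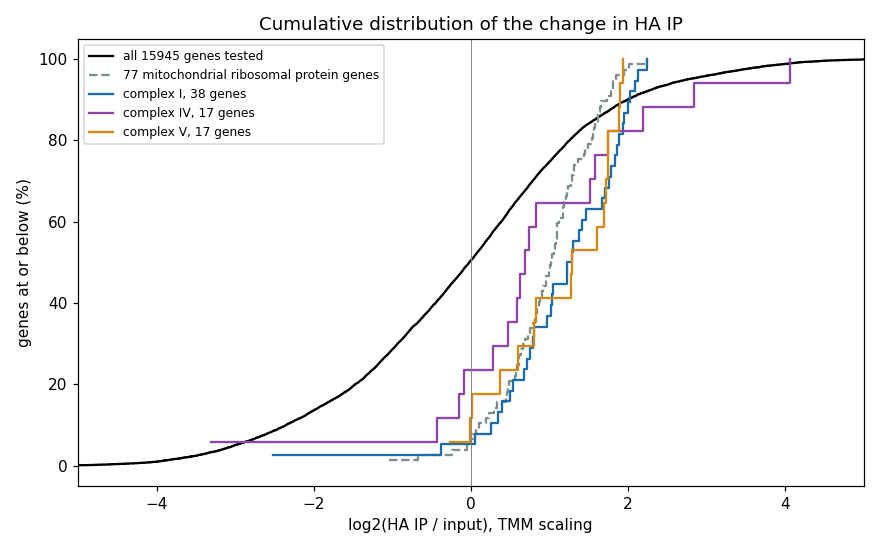
Cumulative share of genes in percent against log2 ratio of HA IP to input after TMM scaling, for all 15945 genes tested, 77 mitochondrial ribosomal protein genes and the members of complexes I, IV and V. The complex IV curve reaches 50 percent at 0.70, to the left of complex I at 1.26 and complex V at 1.29.

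Complex I, the NADH dehydrogenase, had 34 of 38 members higher and 2 lower, against 42.1% and 42.3% of all genes. The 2 lower were Ndufa4, now assigned to complex IV, and its paralog Ndufa4l2. The median of the 38 was 1.26, and 0.42 on the deposited scale. Of the 6 nuclear core subunits described here, all but the scaffold Ndufs3 carry the flavin or iron-sulfur clusters between NADH and coenzyme Q. All 6 were at least 2-fold higher on the TMM scale, against 25.3% of all genes. On the deposited scale all 6 were higher, against 23.7% of all genes. There Ndufv2, Ndufs3 and Ndufs8 were below 2-fold, at 0.46, 0.83 and 0.99. On the TMM scale the core median was 1.92, and that of the other 30 Nduf members, which include Ndufa4 but not Ndufa4l2, was 1.04. In single animals the core median ran from 1.74 to 2.08 and that of the others from 0.88 to 1.31, without overlap.

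Ndufs1, the largest core subunit with several iron-sulfur clusters, stood at 10.3, 9.64, 10.9 and 10.1 FPKM in input and 28.1, 30.1, 27.0 and 23.9 FPKM in HA IP. Every HA IP library was above every input library, and the log2 fold change was 2.24 (SE 0.093), the highest of complex I (limma, adjusted p = 7.00e-07). Ndufv1, which binds NADH and the flavin, had 76.7, 76.8, 75.6 and 72.3 FPKM in input and 186, 192, 201 and 159 FPKM in HA IP. Its groups did not overlap either, and it rose by 2.13 (SE 0.077). Ndufv2, the small partner of Ndufv1 in the NADH-binding tip, had 55.6, 52.9, 48.3 and 44.2 FPKM in input and 62.8, 73.0, 81.1 and 60.3 FPKM in HA IP. With 1.30 (SE 0.091) it was the lowest of the 6 core subunits, and its lowest HA IP library lay just above the highest input.

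The core subunits along the path to coenzyme Q were higher as well. Ndufs7, which holds the last cluster before coenzyme Q, had 89.3, 85.1, 85.8 and 73.2 FPKM in input and 188, 204, 212 and 149 FPKM in HA IP. It rose by 2.01 (SE 0.082), with no overlap of groups. For Ndufs8, another cluster-bearing subunit, input libraries had 28.2, 27.2, 23.8 and 22.9 FPKM and HA IP libraries 49.0, 56.5, 55.9 and 42.9 FPKM, a rise of 1.83 (SE 0.083). Ndufs3, a scaffold of the same arm, went from 85.7, 84.8, 74.7 and 76.4 FPKM to 138, 154, 151 and 128 FPKM, a rise of 1.67 (SE 0.078). For all 3 the groups did not overlap, and the HA IP library of animal 595 was the lowest of its group.

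The accessory subunits of complex I, which surround the core and carry no redox centre, were far less uniform. At the top Ndufa9, Ndufs5, Ndufa13, Ndufb7, Ndufc2, Ndufa12, Ndufb11 and Ndufb10 rose by 1.71 to 2.03. Ndufa2, Ndufa5, Ndufa10, Ndufb3, Ndufv3 and Ndufab1, the last being the mitochondrial acyl carrier protein, rose by 1.22 to 1.47. Ndufa3, Ndufa6, Ndufa11 and Ndufs6 rose by 0.97 to 1.05, and none of these 4 passed on the deposited scale. Ndufa7, Ndufa8, Ndufb5, Ndufb8 and Ndufs4, at 0.67 to 0.80, had lower fitted values than the 0.84 shift and so were below 0 on the deposited scale, where none passed.

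The accessory subunits at the bottom of the list stood lower on the deposited scale. Ndufa1, Ndufb6, Ndufb9 and Ndufc1 rose by 0.35 to 0.54 on the TMM scale and were called lower on the deposited one, at -0.30 to -0.49. Ndufb2 and Ndufb4, both of the membrane arm, had 0.26 and 0.056 and did not pass (limma, adjusted p = 0.057 and 0.601). The Ndufb genes, whose products lie in the membrane arm, therefore ran from 0.056 to 1.89.

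Ndufa4, which carries a complex I symbol but is now assigned to complex IV, was 1 of 5 members to fall. Its input libraries had 1154, 1463, 1023 and 936 FPKM and its HA IP libraries 450.1, 550.4, 554 and 398 FPKM. All deposited HA IP values were below all input values, and the TMM log2 fold change was -0.38 (SE 0.12, limma, adjusted p = 0.0202). In animal 581 the scaled ratio was close to 0, the ratios being -0.48, -0.52, -0.065 and -0.46. For Ndufa4, without the animal as a block the adjusted p was 0.0716 and the call was lost, and it was also lost without animal 579, 580 or 595.

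Complex II, succinate dehydrogenase, is the one complex with no mitochondrially encoded subunit and also works in the citric acid cycle. All 4 of its subunits rose at least 2-fold, against 25.3% of all genes. All 4 were also higher on the deposited scale, against 23.7% of all genes, though Sdhd was below 2-fold there at 0.35. The median was 1.94, or 1.10 on the deposited scale. Sdha, the flavoprotein that oxidises succinate, had 112, 112, 119 and 114 FPKM in input and 252, 251, 241 and 234 FPKM in HA IP. The groups were far apart with little spread in either, and the log2 fold change was 1.94 (SE 0.078, limma, adjusted p = 6.02e-07).

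Sdhb, the iron-sulfur subunit, stood at 124, 121, 123 and 103 FPKM in input and 236, 289, 288 and 208 FPKM in HA IP and rose by 1.95 (SE 0.088). The input library of animal 595 was lower than the other inputs, which lay close together. Sdhc, a membrane anchor that helps bind coenzyme Q, had 80.6, 78.2, 71.8 and 69.2 FPKM in input and 251, 259, 269 and 197 FPKM in HA IP. With 2.54 (SE 0.088), a 5.80-fold difference on the TMM scale and 3.24-fold on the deposited scale, it was the highest member outside the restricted isoforms. Sdhd, the other anchor, had 75.7, 79.5, 65.5 and 64.0 FPKM in input and 83.9, 100.2, 106 and 75.7 FPKM in HA IP. It rose by 1.20 (SE 0.096) and its deposited groups overlapped, so that the membrane anchors were the highest and the lowest of the complex.

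Complex III, which oxidises coenzyme Q and reduces cytochrome c, had all 8 members higher, against 42.1% of all genes. Its median was 1.23, and 0.39 on the deposited scale. Uqcrfs1, the Rieske iron-sulfur protein, had 88.4, 89.8, 82.3 and 76.5 FPKM in input and 244, 255, 278 and 189 FPKM in HA IP. It rose by 2.35 (SE 0.092), the highest value of the complex (limma, adjusted p = 5.19e-07), and its groups were far apart. The large core proteins Uqcrc1 and Uqcrc2 rose by 2.25 (SE 0.079) and 1.76 (SE 0.088).

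The 5 small complex III subunits had a median of 1.02, and that of Uqcrfs1 and the core proteins was 2.25. Uqcr11 rose by 1.38 (SE 0.11), Uqcrb by 1.09 (SE 0.092), Uqcrh, the hinge protein near cytochrome c, by 1.02 (SE 0.12), and Uqcr10 by 0.96 (SE 0.14). Uqcrq, the lowest, had 318, 350.0, 262 and 246 FPKM in input and 257, 301, 291 and 227 FPKM in HA IP. Its deposited groups overlapped, and only the HA IP library of animal 581 was above the input of its animal. The TMM log2 fold change was 0.72 (SE 0.093), and -0.12 on the deposited scale, where it did not pass.

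Complex IV, cytochrome c oxidase, contained the members furthest from 0 in either direction and the lowest median of the 5 complexes, 0.70, or -0.15 on the deposited scale. Of its 17 tested members 13 were higher and 2 lower, against 42.1% and 42.3% of all genes. Ndufa4 is not among them, since members were counted by symbol. The 11 members other than restricted isoforms had a median of 0.59 (0.45 to 0.79 in single animals), with 8 higher, 1 lower and 2 not passed. On the deposited scale 1 of these 11 was higher, against 23.7% of all genes, 6 were lower, against 62.5%, and 4 did not pass.

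Cox5a, a matrix-side subunit, was the exception and rose by 1.59 (SE 0.11), or 0.74 on the deposited scale (limma, adjusted p = 6.06e-04). Its sister on the matrix side, Cox5b, rose by 0.70 (SE 0.10) with -0.15 on the deposited scale. Cox6c and Cox7c, small membrane-spanning subunits, rose by 0.47 (SE 0.11) and 0.28 (SE 0.098) and fell on the deposited scale, at -0.37 and -0.56. The TMM call of Cox7c was lost without the animal as a block (limma, adjusted p = 0.0965), with median-of-ratios scaling, without the filter on low values, and without animal 580, 581 or 595.

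Cox7b, which stabilises the assembled enzyme, was the lowest of the ubiquitous members. It stood at 345, 444, 315 and 287 FPKM in input and 138, 163, 154 and 118 FPKM in HA IP. Deposited values in HA IP were below every input value, and the log2 fold change was -0.42 (SE 0.085) on the TMM scale (limma, adjusted p = 0.00259) and -1.27 on the deposited scale. The scaled ratio was below 0 in all 4 animals.

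Cox7a2, the form of subunit 7a found in most tissues, had 384, 440.0, 320.0 and 289 FPKM in input and 173, 214, 196 and 136 FPKM in HA IP. Cox7a2l, which links complexes III and IV into supercomplexes, had 52.9, 56.1, 52.1 and 42.0 FPKM in input and 25.4, 30.8, 31.5 and 19.9 FPKM in HA IP. For both genes every deposited HA IP value was below every input value. On the TMM scale they had -0.15 (SE 0.095) and -0.090 (SE 0.081) and did not pass (limma, adjusted p = 0.169 and 0.328). Cox7a2 did pass in the lower direction with median-of-ratios scaling and without animal 581. Its locus overlaps that of Tmem30a, at -0.42, and the strand setting of the authors' counting is not known here.

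Several complex IV subunits exist as pairs of isoforms, 1 found in most tissues and 1 restricted to tissues such as heart, muscle, lung or testis. The ratio of 2 isoforms within a library does not depend on the scaling apart from the pseudocount, so it was compared between groups for 10 pairs on log2(FPKM + 0.1), with a two-sided exact permutation test over 4 against 4 libraries. The smallest p that this test can give is 0.0286. It was reached by 8 pairs, each with an adjusted p of 0.0357 over the 10 pairs. This test treats the libraries as independent although each animal gave one of either kind. An exact permutation within the 4 animals, added after seeing the data, cannot go below p = 0.125, so no pair can pass it, and the same 8 pairs had that value. Each of the 8 shifted the same way in all 4 animals. Differences between the groups were common in these data. Deposited FPKM of the groups did not overlap for 21.5% of all genes in the higher and 58.5% in the lower direction. How many other gene pairs would reach a p of 0.0286 was not tested.

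**Figure D3:**
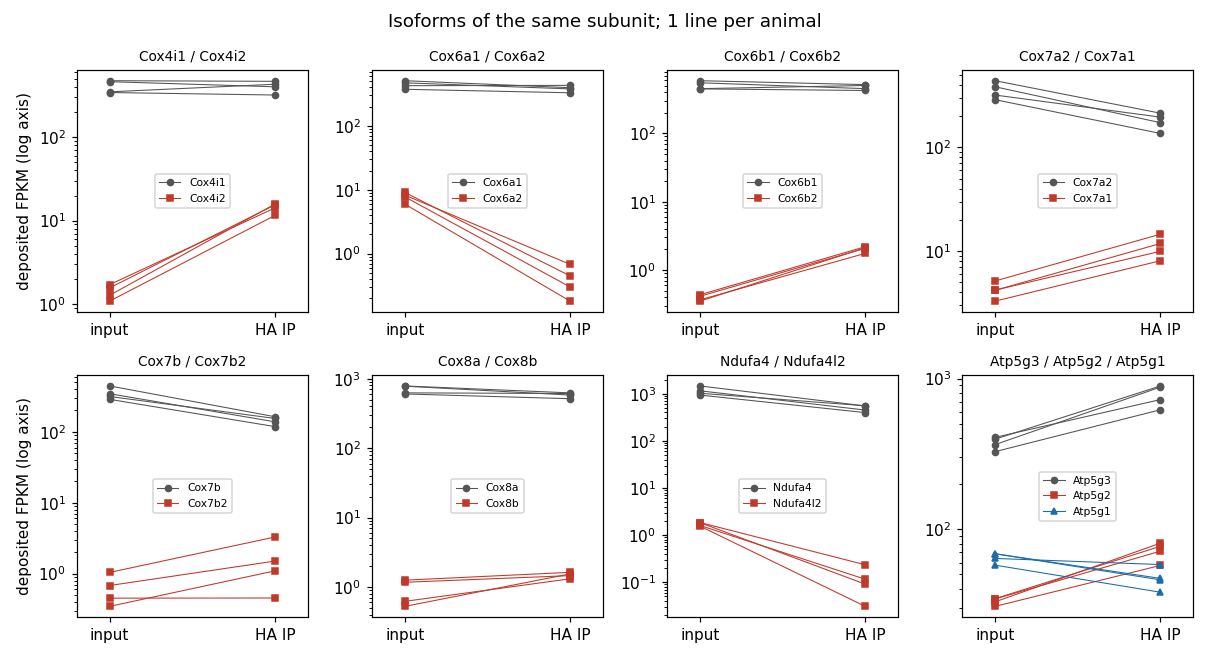
Deposited FPKM on a log axis in input and HA IP for 8 isoform families, with 1 line per animal, grey for the isoform found in most tissues and red or blue for the others. Cox4i2, Cox6b2 and Cox7a1 rise from input to HA IP in all 4 animals while Cox6a2 and Ndufa4l2 fall in all 4.

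The ratio of Cox4i2 to Cox4i1 was higher in HA IP by 3.26 ± 0.092 (SD over the 4 animals) on the log2 scale. Cox4i2, an isoform known from lung and from cells of the vessel wall, had 1.71, 1.56, 1.27 and 1.08 FPKM in input and 14.2, 15.5, 15.8 and 11.5 FPKM in HA IP. It had the largest log2 fold change of all members, 4.06 (SE 0.099), a 16.7-fold difference on the TMM scale (limma, adjusted p = 7.18e-08). These values rest on 34 to 44 fragments in input and 282 to 512 in HA IP. Cox4i1, the form found in most tissues, had 462, 475, 349.6 and 343 FPKM in input and 402, 467, 431 and 320.1 FPKM in HA IP. Its groups overlapped, and it had 0.84 (SE 0.11) on the TMM scale and -0.0067 on the deposited scale. The Cox4i2 gene (chromosome 2, 152753916 to 152765039, GRCm38.p6) overlaps Bcl2l1 in RefSeq, which had 0.012 and did not pass.

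The markers of pericytes and smooth muscle, where Cox4i2 is known to be expressed, were mixed. Of the 11 measured, 3 were higher in HA IP, 4 were lower and 4 did not pass. Pdgfrb, Notch3 and Myl9 rose by 2.37, 2.13 and 1.32, while Rgs5, Kcnj8, Abcc9 and Higd1b had -2.52, -2.37, -1.504 and -3.09. The summed level of the list was 56.0 to 67.6 FPKM in input libraries and 29.0 to 61.8 FPKM in HA IP. No marker of the list was at 0 in any library, and the part of these cells in the Cox4i2 result was not tested.

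The ratio of Cox6a2 to Cox6a1 moved the other way, by -3.84 ± 0.35 (SD over the 4 animals), or by -2.43 with a pseudocount of 1 FPKM. Cox6a2, the isoform of heart and skeletal muscle that is also known from parvalbumin interneurons, had 7.75, 9.08, 8.25 and 5.97 FPKM in input and 0.3004, 0.447, 0.679 and 0.180 FPKM in HA IP. Its log2 fold change was -3.31 (SE 0.19, limma, adjusted p = 3.48e-06), or 0.101 times its input level on the TMM scale, counted from 181 to 211 fragments in input and 4 to 20 in HA IP. Cox6a1 had 473, 511, 427 and 375 FPKM in input and 379.9, 397, 432 and 330.4 FPKM in HA IP, groups that overlapped. It had 0.63 (SE 0.093) on the TMM scale and -0.21, not passed, on the deposited scale.

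The 7 parvalbumin interneuron markers were all lower in HA IP, with a median of -3.89. Their summed level was 263 to 308 FPKM in input and 8.09 to 12.7 FPKM in HA IP. Pvalb itself had -4.17, and no marker of the list was at 0 in any library. The 10 neuron markers were all lower too, with a median of -3.60, and Gad1 is on both lists. The part of parvalbumin interneurons in the Cox6a2 result was not tested. The Cox6a2 gene (chromosome 7, 128205435 to 128206366) overlaps Itgad in RefSeq, a gene not tested here.

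Cox6b2, the testis form of subunit 6b, had 0.436, 0.367, 0.351 and 0.413 FPKM in input and 2.20, 1.76, 2.11 and 2.09 FPKM in HA IP. The groups were far apart, with a log2 fold change of 2.85 (SE 0.12) and a shift against Cox6b1 of 2.22 ± 0.11 (SD over the 4 animals), or 1.22 with a pseudocount of 1 FPKM. Its values rest on 41 to 70 fragments in input and 223 to 317 in HA IP. The length behind its FPKM, 3158 bases, exceeds the 1303 bases that the gene spans in RefSeq (chromosome 7, 4751792 to 4753094), so the counted region was longer than that model. Cox6b1, which sits on the cytochrome c side, had 549, 589, 451 and 447 FPKM in input and 451, 516, 501 and 424 FPKM in HA IP. The groups overlapped, at 0.74 (SE 0.10) on the TMM scale and -0.10 on the deposited scale.

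The ratio of Cox7a1, the heart and muscle form, to Cox7a2 was higher in HA IP by 2.36 ± 0.19 (SD over the 4 animals). Cox7a1 stood at 4.19, 4.21, 5.16 and 3.30 FPKM in input and 11.9, 9.97, 14.6 and 8.08 FPKM in HA IP. It rose by 2.19 (SE 0.082), with no overlap of groups, on 54 to 69 fragments in input and 99 to 237 in HA IP. The ratio of Cox7a2l to Cox7a2 shifted by 0.065 ± 0.089 (SD over the 4 animals), which did not pass (adjusted p = 0.457, exact permutation test over 4 against 4 libraries). Single animals ran from -0.019 to 0.18.

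Cox8b and Cox7b2 rest on few fragments. Cox8b, the heart and muscle form of subunit 8, had 1.17, 1.25, 0.525 and 0.620 FPKM in input and 1.46, 1.62, 1.54 and 1.31 FPKM in HA IP, from 7 to 16 and 16 to 26 fragments. It rose by 1.52 (SE 0.19), and its ratio to Cox8a by 1.01 ± 0.36 (SD over the 4 animals), or 0.67 with a pseudocount of 1 FPKM. Cox8a, the form found in most tissues, had 781, 787, 626 and 603 FPKM in input and 582, 625, 612 and 515 FPKM in HA IP, overlapping groups with 0.59 (SE 0.10) on the TMM scale and -0.25 on the deposited scale. Cox7b2, a testis form, had 1.04, 0.680, 0.451 and 0.345 FPKM in input and 3.28, 1.503, 0.453 and 1.09 FPKM in HA IP. The groups overlapped, since animal 581 had nearly the same deposited value in both libraries, and the scaled ratios were 2.39, 1.85, 0.68 and 2.08. Its fold change was 1.75 (SE 0.28) and its shift against Cox7b 2.28 ± 0.84 (SD over the 4 animals), no longer passing with a pseudocount of 0.01 FPKM (adjusted p = 0.0714, exact permutation test).

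Ndufa4l2, a paralog of Ndufa4 known to be induced in low oxygen and expressed in pericytes, was the other isoform to fall. It had 1.84, 1.85, 1.61 and 1.55 FPKM in input and 0.0912, 0.235, 0.116 and 0.0308 FPKM in HA IP, or 57 to 80 and 1 to 10 fragments. The log2 fold change was -2.52 (SE 0.24, limma, adjusted p = 4.76e-05), and the shift against Ndufa4 was -1.91 ± 0.55 (SD over the 4 animals). With a pseudocount of 1 FPKM that shift was -0.060 and did not pass (adjusted p = 0.657, exact permutation test), a setting at which the pseudocount exceeds every HA IP value of Ndufa4l2. Ndufa4l2 (chromosome 10, 127509274 to 127517154) overlaps Shmt2, which rose by 2.82. Cox4i2 and Ndufa4l2, both known from pericytes, went in opposite directions, and the part of these cells in the Ndufa4l2 result was not tested.

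Promoters are shown for isoform pairs, so that the sequences of genes for the same subunit can be set beside their values. RefSeq gave the 250 bases before the start of 70 of the 85 members, 3 of them under another name, on the build GRCm38.p6. They were searched on both strands for 4 short motifs: the palindromic NRF1 motif, the motif CCGGAAG of ETS factors such as GABP, both named in textbooks as regulators of these genes, the GC box GGGCGG and the TATA box TATAAA. The motifs do not contain one another. Of the 10 pairs, 3 had a window in RefSeq that ended where the gene starts for both genes, and these are printed. Capitals mark the matches.
Cox6b1: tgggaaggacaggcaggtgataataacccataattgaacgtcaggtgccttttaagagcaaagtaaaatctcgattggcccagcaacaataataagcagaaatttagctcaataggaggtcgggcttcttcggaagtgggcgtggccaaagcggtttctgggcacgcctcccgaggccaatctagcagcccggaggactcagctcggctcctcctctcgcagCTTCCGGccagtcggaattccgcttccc
Cox6b2: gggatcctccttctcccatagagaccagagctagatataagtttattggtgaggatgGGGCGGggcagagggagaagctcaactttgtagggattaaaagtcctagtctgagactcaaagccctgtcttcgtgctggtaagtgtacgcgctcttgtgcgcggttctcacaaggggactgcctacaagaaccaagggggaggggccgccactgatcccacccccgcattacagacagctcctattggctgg
Cox7b: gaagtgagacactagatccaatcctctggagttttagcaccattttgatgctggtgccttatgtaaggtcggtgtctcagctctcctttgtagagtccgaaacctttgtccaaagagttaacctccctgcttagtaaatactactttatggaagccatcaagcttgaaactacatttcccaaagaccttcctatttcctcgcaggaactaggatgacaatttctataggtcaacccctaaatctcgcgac
Cox7b2: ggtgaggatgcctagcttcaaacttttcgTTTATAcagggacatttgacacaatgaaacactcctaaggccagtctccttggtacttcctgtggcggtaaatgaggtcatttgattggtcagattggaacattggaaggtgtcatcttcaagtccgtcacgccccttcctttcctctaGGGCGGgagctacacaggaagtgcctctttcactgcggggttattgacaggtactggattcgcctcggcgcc
Cox8a: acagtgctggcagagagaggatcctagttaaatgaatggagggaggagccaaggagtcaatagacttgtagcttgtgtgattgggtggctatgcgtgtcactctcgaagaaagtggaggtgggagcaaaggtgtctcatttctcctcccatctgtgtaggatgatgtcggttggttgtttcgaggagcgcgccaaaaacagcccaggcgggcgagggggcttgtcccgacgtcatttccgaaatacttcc
Cox8b: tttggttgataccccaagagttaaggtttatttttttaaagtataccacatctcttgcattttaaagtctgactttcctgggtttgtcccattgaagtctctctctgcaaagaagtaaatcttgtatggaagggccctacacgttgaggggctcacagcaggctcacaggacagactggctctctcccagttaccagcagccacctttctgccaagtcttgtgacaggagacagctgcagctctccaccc
These lie at chr7:30626115-30626364 (minus strand), chr7:4753095-4753344 (minus strand), chrX:106015450-106015699 (plus strand), chr5:71548206-71548455 (minus strand), chr19:7217617-7217866 (minus strand) and chr7:140900447-140900696 (minus strand), and are written 5′ to 3′ on the strand of the gene.

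Among the printed windows Cox6b1 held a match to ETS, Cox6b2 one to the GC box, and Cox7b2 one to the GC box and one to the TATA box. Cox7b, Cox8a and Cox8b held no match. Over the 70 windows, 5.71% held the NRF1 motif (Cox6a1, Ndufa11, Atp5g2 and Atp5k), against 0.877% of 27025 genes with a window of the same length. The ETS motif was found in 17.1% of members and 7.83% of all genes, the GC box in 37.1% and 35.4%, and the TATA box in 8.57% and 14.3%. The median log2 fold change of members with and without a match was 0.83 and 1.28 for NRF1, which rests on 4 members, and 1.11 and 1.29 for ETS. It was 1.25 and 1.24 for the GC box and 1.39 and 1.25 for the TATA box. These matches are descriptions of the letters and not of binding.

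Complex V, ATP synthase, had 14 of 17 members higher, 1 lower and 2 not passed. Of all genes, 42.1% were higher and 42.3% lower. The median of the complex was 1.29, and 0.45 on the deposited scale. In the catalytic F1 head, the alpha subunit gene Atp5a1 had 289, 293, 292 and 272 FPKM in input and 624, 623, 649.5 and 509.7 FPKM in HA IP. The beta subunit gene Atp5b, which holds the catalytic sites, had 495, 481, 484 and 452 FPKM in input and 909, 895, 1013 and 764 FPKM in HA IP. Input values of both genes varied little, no HA IP value came near them, and the log2 fold changes were 1.90 (SE 0.094) and 1.74 (SE 0.10) (limma, adjusted p = 1.63e-06 and 4.23e-06). Atp5c1 and Atp5d, the gamma and delta subunits of the turning shaft, rose by 1.74 (SE 0.085) and 1.60 (SE 0.096).

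Atp5e, the small epsilon subunit of the same shaft, stood apart from the other F1 subunits. It had 482, 586, 418 and 361 FPKM in input and 213, 247, 239.9 and 155 FPKM in HA IP. All HA IP values on the deposited scale were below all input values, and the log2 fold change there was -1.11. On the TMM scale it was -0.27 (SE 0.0997, limma, adjusted p = 0.0384), with ratios of -0.30, -0.35, 0.018 and -0.44, so that animal 581 did not share the direction. That call was lost without the animal as a block (adjusted p = 0.215), without the filter on low values, and without animal 579, 580 or 595.

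The stalk and membrane subunits with an Atp5 symbol were higher on the TMM scale. The peripheral stalk genes Atp5h, Atp5o, Atp5f1 and Atp5j rose by 1.72, 1.69, 1.29 and 1.27. The membrane subunit genes Atp5j2, Atp5l and Atp5k rose by 0.83, 0.81 and 0.60 and had -0.015, -0.035 and -0.25 on the deposited scale. Usmg5 and 2010107E04Rik, small membrane subunits of the enzyme whose symbols fall outside the rule, fell instead and were named after their values were seen. Usmg5 had 884, 1146, 836 and 760.4 FPKM in input and 226, 299.5, 274 and 198 FPKM in HA IP, without overlap, and a log2 fold change of -1.02 (SE 0.099, limma, adjusted p = 5.69e-05). For 2010107E04Rik it was -0.39 (SE 0.10, limma, adjusted p = 0.00951). Atp5s and Atp5sl, which share the symbol but are not part of the enzyme proper, had -0.0084 (SE 0.087) and 0.015 (SE 0.069) and did not pass.

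The rotating c ring is made from 3 genes whose mature proteins are the same. Atp5g3 had 407, 396, 364 and 327 FPKM in input and 725, 894, 878 and 621 FPKM in HA IP, and rose by 1.89 (SE 0.11). Atp5g2 had 34.4, 34.5, 32.9 and 30.7 FPKM in input and 71.4, 76.9, 80.7 and 57.4 FPKM in HA IP, and with 1.94 (SE 0.084) was the highest of the complex. Their ratio to each other shifted by 0.050 ± 0.11 (SD over the 4 animals), which did not pass (adjusted p = 0.413, exact permutation test), with single animals from -0.022 to 0.22.

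Atp5g1, the third gene of the ring, was lower relative to Atp5g3. It stood at 68.6, 68.7, 63.9 and 57.6 FPKM in input and 46.0, 47.1, 58.2 and 38.1 FPKM in HA IP. Each HA IP library was below the input of its animal, although the groups overlapped through animal 581. The log2 fold change was 0.38 (SE 0.091) on the TMM scale, called higher, and -0.46 on the deposited scale, called lower. Against Atp5g3 its ratio was lower in HA IP by a log2 value of -1.51 ± 0.15 (SD over the 4 animals), with single animals from -1.72 to -1.40.

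Longer members tended to have the higher values. Across the 77 members outside the restricted isoforms, the Spearman correlation of the log2 fold change with the length in the FPKM was 0.39, across complex I 0.44, across complex V 0.19 and across complex IV -0.13. These are correlations across genes that share libraries, and the one over all genes tested was -0.070 and over mitochondrial ribosomal protein genes 0.064. Split at 1000 bases, however, all genes differed in the same direction as the members, with a median of -0.30 for the 1525 shorter and 0.0052 for the 14420 longer ones. The 48 members shorter than 1000 bases had a median of 0.99, with 42 higher, 3 lower and 3 not passed. The 29 longer ones had a median of 1.74, with 26 higher and 3 not passed. Over genes of any length 42.1% were higher and 42.3% lower, and these shares were not computed by length class. Short members were found at the top too, since Ndufs5, Ndufb7 and Atp5g2 have lengths of 506, 530 and 642 bases and rose by 1.95, 1.89 and 1.94. The part of length in the order of the members was not tested.

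**Figure D4:**
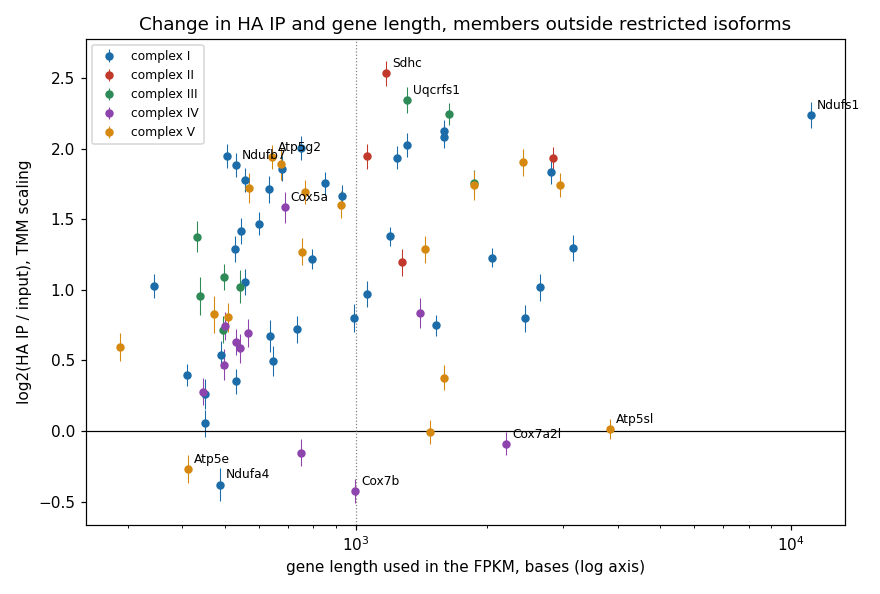
Log2 ratio of HA IP to input after TMM scaling with its SE against the gene length used in the FPKM in bases on a log axis, for 77 members coloured by complex. The dotted line marks 1000 bases, and the values at either side of it have medians of 0.99 and 1.74.

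The level of the short members as a class also moved between animals, in input by more than that of the long ones. In input, the 48 shorter members lay above the group mean in animals 579 and 580, by a median of 0.12 and 0.21 on the log2 scale, and by -0.13 and -0.21 in animals 581 and 595. For the 29 longer members the same medians were 0.082, 0.064, -0.018 and -0.12. In HA IP the classes were nearly alike, with -0.050, 0.17, 0.14 and -0.24 for the shorter and -0.024, 0.12, 0.13 and -0.23 for the longer members.

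The genes around the chain, taken from lists of assembly factors, carriers and regulators, are set here against the shares of all genes, of which 42.1% were higher and 42.3% lower. Of 101 tested, 65 were higher, 19 lower and 17 not passed, with a median of 0.67 and -0.16 on the deposited scale. Of the assembly factors of complex I 12 of 14 were higher, with a median of 0.95. They ranged from Ndufaf4 at -0.24 (SE 0.090), which fell, to the iron-sulfur cluster carrier gene Nubpl at 1.84 (SE 0.10). Of the 24 complex IV assembly factors 12 were higher, a share near that of all genes, 4 lower and 8 not passed, with a median of 0.21. Their ends were Coa5 at -0.55 (SE 0.064) and Cox10, which acts in a step of making the heme of complex IV, at 2.41 (SE 0.065).

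The shorter lists had members on either side. Among 3 complex II assembly factors Sdhaf2, which inserts the flavin, was highest at 1.41 (SE 0.10) and Acn9 lowest at -0.68 (SE 0.16). Among 5 of complex III, 2 were higher and 3 lower, from Lyrm7 at -0.72 (SE 0.086) to Bcs1l, the chaperone of the Rieske protein, at 1.12 (SE 0.075). The list for complex V holds assembly factors, the inhibitor and the subunits Usmg5 and 2010107E04Rik. In it 2 were higher and 4 lower, and Atpif1, the inhibitor of ATP hydrolysis by the enzyme, was the lowest. It had 504, 550.0, 416 and 409 FPKM in input and 85.4, 102, 82.2 and 91.3 FPKM in HA IP. The groups were far apart, with a log2 fold change of -1.53 (SE 0.079) and -2.37 on the deposited scale, while Tmem70, an assembly factor, was highest at 0.83 (SE 0.096).

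**Figure D5:**
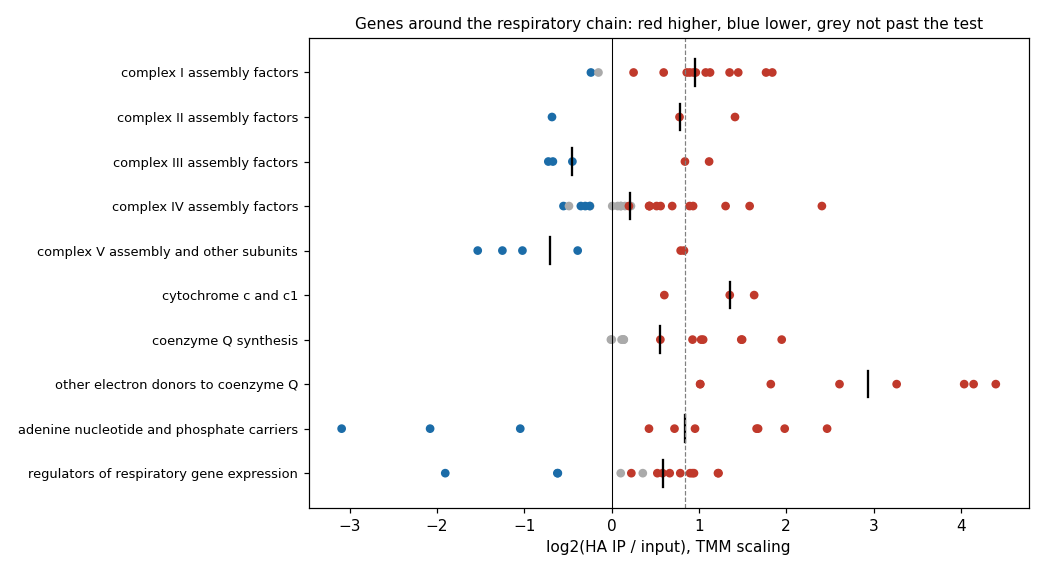
Log2 ratio of HA IP to input after TMM scaling for 101 genes around the respiratory chain, 1 point per gene and 1 row per list, red for higher, blue for lower and grey for not passed, with a bar at the list median. The dashed line at 0.84 marks equal deposited FPKM, and the row of other electron donors to coenzyme Q has all 8 points at or above 1.01.

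Genes that feed electrons into coenzyme Q without complex I or II were all at least 2-fold higher, 8 of 8, against 25.3% of all genes. Their median was 2.94. On the deposited scale the median was 2.10, with 6 higher, against 23.7% of all genes, and 2 not passed. Prodh, which oxidises proline, had 11.96, 10.5, 6.80 and 12.1 FPKM in input and 147, 137, 79.9 and 131 FPKM in HA IP, and rose by 4.40 (SE 0.077). Every HA IP value was several times every input value. Chdh, which oxidises choline, was the lowest at 1.01 (SE 0.19). The electron transfer flavoprotein genes Etfa, Etfb and Etfdh, which pass on electrons from fatty acid oxidation, rose by 3.26, 4.04 and 2.61. They were named after their values were seen.

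Of 13 coenzyme Q synthesis genes 7 were higher, not far from the share of all genes, and 6 not passed, from Pdss1 at -0.0073 (SE 0.11) to Coq7 at 1.95 (SE 0.065). The cytochromes and the enzyme that attaches their heme were higher, 3 of 3, from Cycs, cytochrome c itself, at 0.60 (SE 0.11) to Cyc1, the cytochrome of complex III, at 1.63 (SE 0.081). Among 10 carriers and pores 7 were higher and 3 lower. The phosphate carrier gene Slc25a3 rose by 2.47 (SE 0.12), and the mitochondrial creatine kinase gene Ckmt1 fell from 89.7 to 102 FPKM to 5.82 to 6.40 FPKM, a log2 fold change of -3.09 (SE 0.066). Among 15 regulators 10 were higher, 3 lower and 2 not passed, from the coactivator gene Ppargc1b at -1.90 (SE 0.14) to Gabpa, a subunit of the ETS factor GABP, at 1.23 (SE 0.072). Gabpa overlaps Atp5j in RefSeq.

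Of the 82 members found in RefSeq, 26 overlap another gene there, and 19 pseudogenes carry a symbol like that of a member. The counting of reads shared with such copies is not described in the labels used here, so the level of any 1 member may include them. Member values rested on 215 to 85055 fragments per library outside the restricted isoforms.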

How the data were processed

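RNA from 4 input and 4 HA IP libraries, 100 ng each, was enriched for mRNA and made into paired-end stranded libraries, per the labels' protocols. Tools listed in the submitters' processing notes are STAR, HTSeq and bcl2fastq 2.17, with the build mm10. Settings, annotation and use of strand are not given in the sources used. The deposited files hold 1 value for each of 24060 rows and name no unit. They were read as FPKM made by the authors, because 1 whole length per gene and 1 total per library turned each of the 142235 nonzero values into whole fragments, to a tolerance of 0.001. The fragments given in the text are these recovered numbers, 99.91% to 99.96% of the library totals. Lengths recovered this way are not always those of single transcripts, so levels of different genes are not compared. Rows whose symbols had turned into spreadsheet dates stayed in the fit and are not named.

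FPKM were divided by TMM factors (0.3 of M-values and 0.05 of A-values trimmed, no weights). limma 3.58.1 in R 4.3.3 was then fitted with an intensity trend on log2(FPKM + 0.1), with HA IP against input and the animal as a block. Genes with at least 0.1 FPKM in at least 4 libraries were tested, two-sided p-values were adjusted over all of these by Benjamini-Hochberg, and a call needs an adjusted p under 0.05. Because of the pseudocount, changes of low genes are understated. The fit was run on simulated data in which few genes changed, without scaling factors and without differences between animals. That check does not cover the scaling or the pairing. Libraries of 1 animal deviated together from their group means, with correlations of 0.15 to 0.34 in the 4 same-animal pairs and -0.21 to 0.067 in the 12 other pairs, where the labels' animal numbers gave the pairing. Isoform ratios used the deposited FPKM and an exact permutation test that enumerates every split of the libraries. Spearman correlations were computed with scipy 1.17.1.

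Members, gene lists and tests were chosen with earlier results of these data known. Values per library are given for isoform genes above 0, 6 genes of the complex I core, complex II, the catalytic subunits and the highest and lowest member of each complex, and companion lists are given by counts and their highest and lowest member. The values of 1 member, which stays in the counts over complexes and all members, are not reported here. No genome or protein sequence was used, and gene positions and promoters are those of RefSeq on GRCm38.p6. Alternatives were other scalings, pseudocounts of 0.01 and 1 FPKM, no filter or one of 1 FPKM, no block, no trend, and leaving out each animal.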

Additional observations from a re-analysis of the deposited data

Results flagged for a closer look

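Of the 168 member and group combinations tested for a library far from the other 3 of its group (Dixon's 95% critical value for 4 libraries), 2 passed, where chance alone gives about 1 in 20. Sdhb had 103.3 FPKM in the input library of animal 595, below the other inputs. Atp5sl had 4.84 FPKM in the HA IP library of animal 580, below the other HA IP libraries, and it did not pass between the groups.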

How the results depend on the processing

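Scaling was the choice that moved results most. On the deposited scale 3778 genes were higher, 46 members were higher and 20 lower, and the medians were 0.41 over all members, 0.42 for complex I, 1.10 for complex II, 0.39 for complex III, -0.15 for complex IV and 0.45 for complex V. Fitted log2 fold changes of 24 members above 0 on the TMM scale were below 0 there: Atp5g1 -0.46, Atp5j2 -0.015, Atp5k -0.25, Atp5l -0.035, Atp5sl -0.82, Cox4i1 -0.0067, Cox5b -0.15, Cox6a1 -0.21, Cox6b1 -0.10, Cox6c -0.37, Cox7c -0.56, Cox8a -0.25, Ndufa1 -0.30, Ndufa7 -0.042, Ndufa8 -0.12, Ndufb2 -0.58, Ndufb4 -0.79, Ndufb5 -0.040, Ndufb6 -0.49, Ndufb8 -0.17, Ndufb9 -0.35, Ndufc1 -0.45, Ndufs4 -0.092 and Uqcrq -0.12. Without the animal as a block, 3 members instead of 5 were lower and 72 were higher, and the calls lost were Atp5e, Cox7c and Ndufa4, for a cause that was not tested. The block changed no other member's call. Leaving out each animal in turn gave 6384 to 6632 genes higher and 6379 to 6601 lower, with 72 to 73 members higher and 3 to 6 lower, 3 without animal 579, 580 or 595 and 6 without animal 581. Medians then ran from 1.20 to 1.29 over all members and from 1.21 to 1.32, 1.89 to 1.99, 1.15 to 1.31, 0.62 to 0.76 and 1.21 to 1.34 for complexes I to V. Ndufb2 passed without animal 595 (limma, adjusted p = 0.0363). Both pseudocounts, the 1 FPKM filter and the fit without an intensity trend kept the call of all 84 members. The isoform pairs that shifted were 7 of 10 with either pseudocount, without Cox7b2 at 0.01 FPKM and without Ndufa4l2 at 1 FPKM. Leaving out an animal gave values for the pairs but no test, since 3 against 3 libraries cannot pass. With the replicate block (exact permutation within animals) 0 of the pairs passed, at an adjusted or unadjusted p under 0.05, in a design that cannot go below 0.125. Restricted isoforms rest on as little as 1 fragment in a library, so that counting error limits their folds.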
